A study of Homo sapiens with 10 samples.

Results

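The linker and core histone cluster genes are the protein-coding genes whose symbols run H1-1 to H1-6 or start with H2AC, H2BC, H3C or H4C followed by a number. Of the 60671 genes in the table, 66 met this rule, namely 6 H1, 16 H2A, 17 H2B, 13 H3 and 14 H4 genes. Tests were run on the 40 of them that averaged 10 or more normalized counts across the 9 libraries with replicates (3 H1, 10 H2A, 14 H2B, 4 H3 and 9 H4 genes), out of 12971 genes tested in all. H2BC1 and H2BC18 lay just inside this limit, with means of 10.3 and 10.5 normalized counts, and H3C6 just outside it, with 9.98.

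RNA was sequenced from U2OS cells, an established human osteosarcoma line, in 10 libraries. EBSS+VBL+Gln+Ars cells (glutamine-recovered) and EBSS+VBL+Ars cells (starved) spent 18 h in EBSS, Earle's balanced salt solution with neither AAs nor serum, with VBL (vinblastine, which disrupts microtubules), with and without added glutamine, and then received arsenite, an oxidative stressor, for 50 min. Ars cells received the arsenite alone and were the reference for starvation, with 3 libraries in each of these groups, and 1 further library came from untreated cells. AA lack, serum lack and VBL came together, so their parts in any difference cannot be told apart, and every replicated group carried arsenite. Whether libraries of a group came from separate cultures was not stated, so p-values measure the spread between libraries, which may be technical.

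Cluster histone genes are the replication-dependent histone genes. The core histones H2A, H2B, H3 and H4 form the protein spool of the nucleosome, and the linker histone H1 binds where DNA enters and leaves it. Their mRNAs are made mainly in S phase, when new DNA must be packaged, and they fall quickly when DNA synthesis stops. They lack introns and end in a conserved stem-loop in place of a poly(A) tail. The stem-loop is bound by SLBP, U7 snRNP guides the cut that forms the 3′ end, and NPAT, a target of cyclin E with CDK2, drives transcription in histone locus bodies. Libraries selected on poly(A) miss most of this RNA. The present libraries were depleted of rRNA instead, so these mRNAs were counted.

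The stem-loops below are shown because they are the feature that sets these mRNAs apart from others. They also differ between classes and between some genes of the same class. Genes whose levels moved differently can have the same stem-loop, as H1-4 and H2BC14 do. Letters come from GENCODE v44 transcripts on hg38, read on the RNA strand with T for U, with the 16 bases of the stem-loop (stems of 6 bases, loop of 4) in capitals and up to 5 flanking bases on each side. The search accepted only perfect stems of 6 bases that start with GG, within the annotated transcript. A stem-loop was found in 62 of the 64 members that matched a transcript, and none was found in H2AC11 or H2AC15. Those genes may still have one, as a stem with a mismatch or past the annotated end would be missed.

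H1-1: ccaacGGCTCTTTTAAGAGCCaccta
H1-4: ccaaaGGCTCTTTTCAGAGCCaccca
H2AC20: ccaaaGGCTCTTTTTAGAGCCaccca
H2BC12: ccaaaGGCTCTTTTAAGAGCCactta
H2BC14: ccaaaGGCTCTTTTCAGAGCCgtcca
H3C2: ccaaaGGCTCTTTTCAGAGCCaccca
H4C5: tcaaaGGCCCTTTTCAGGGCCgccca
H4C9: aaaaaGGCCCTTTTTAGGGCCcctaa

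Each of the 14 H4 genes had the stem GGCCCT with its complement, and each member of another class with a stem-loop had GGCTCT. The loop was TTTC in 9 of the 14 H4 genes, H4C5 among them, and TTTT in 4, H4C9 among them. Of the 17 H2B genes 11 had the loop TTTC, H2BC14 among them, and 5 had TTTA, H2BC12 among them.

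The libraries held 4452208 to 6323628 counted reads in the glutamine-recovered group, 3538017 to 4993421 in the starved group, 5914439 to 7019842 in the Ars group and 5302037 in untreated cells. RN7SL1, a noncoding RNA that helps target secreted proteins, made up 7.88 to 20.2% of reads in the 10 libraries and differed between libraries of 1 group. Of the markers written down for the labelled osteosarcoma lineage, RUNX2, ALPL, COL1A1 and SPARC were measured, 6 of 10 were under a mean of 10 and DLX5 and IBSP were at 0 in every library. Each of the 12 blood cell markers was under 10, their summed level being 11.9 to 13.0 normalized counts in glutamine-recovered, 5.52 to 6.98 in starved, 2.52 to 8.38 in Ars libraries and 3.80 in the untreated one. EPCAM, CDH1 and KRT19 of 5 epithelial markers and PECAM1 and KDR of 4 endothelial ones were also under 10. The other epithelial markers, KRT8 and KRT18, were well above it (means of 1351 and 4849), and between starved and Ars cells KRT8 was called lower (-1.44) and KRT18 higher (0.88, and lower with glutamine, -0.60). Summed epithelial levels were 5091 to 5470.0 normalized counts in glutamine-recovered, 7293 to 7793 in starved and 5759 to 6035 in Ars libraries and 5805 in the untreated one. The other endothelial markers, VWF and CDH5, averaged 14.9 and 13.6 and were called lower (-0.79) and higher (1.73) with starvation, and summed endothelial levels were 33.6 to 41.1 normalized counts in glutamine-recovered, 20.2 to 27.6 in starved and 19.6 to 28.9 in Ars libraries and 8.56 in the untreated one. The part of these markers in the histone results was not tested.

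Histone RNA made up a large share of the protein-coding reads and was lower in glutamine-recovered and starved cells than in Ars cells. The 66 members together took 7.88, 9.59 and 7.44% of the reads of protein-coding genes in glutamine-recovered libraries, 6.36, 9.62 and 7.88% in starved libraries, 10.8, 13.2 and 13.4% in Ars libraries and 14.7% in the untreated library. The Ars libraries all stood above the 6 starved and glutamine-recovered libraries, and the untreated library above all others. In bulk RNA, fewer cells with histone mRNA and less histone mRNA per cell cannot be told apart. Summed normalized counts of H2A genes were 65204 ± 10976 in glutamine-recovered, 69425 ± 15325 in starved and 117578 ± 16652 in Ars libraries (mean ± SD, n = 3 each). For H2B genes they were 79879 ± 15143, 93165 ± 20236 and 140591 ± 19071 in glutamine-recovered, starved and Ars libraries. H2A and H2B sums of Ars libraries did not overlap those of starved libraries. The H1 sum was 63956 ± 10126 in glutamine-recovered, 73556 ± 20401 in starved and 85138 ± 13429 in Ars libraries, and these ranges overlapped. H3 sums were 49544 ± 8023, 51487 ± 11024 and 73637 ± 11615, and H4 sums 54561 ± 9802, 56528 ± 12059 and 71274 ± 10162, in glutamine-recovered, starved and Ars libraries, with overlap between starved and Ars libraries in both. Libraries of 1 group differed widely: starved libraries 1, 2 and 3 held 262916, 420710.0 and 348859 histone counts, beside RN7SL1 shares of 18.8, 20.2 and 11.7%, whose part in this was not tested.

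**Figure D1:**
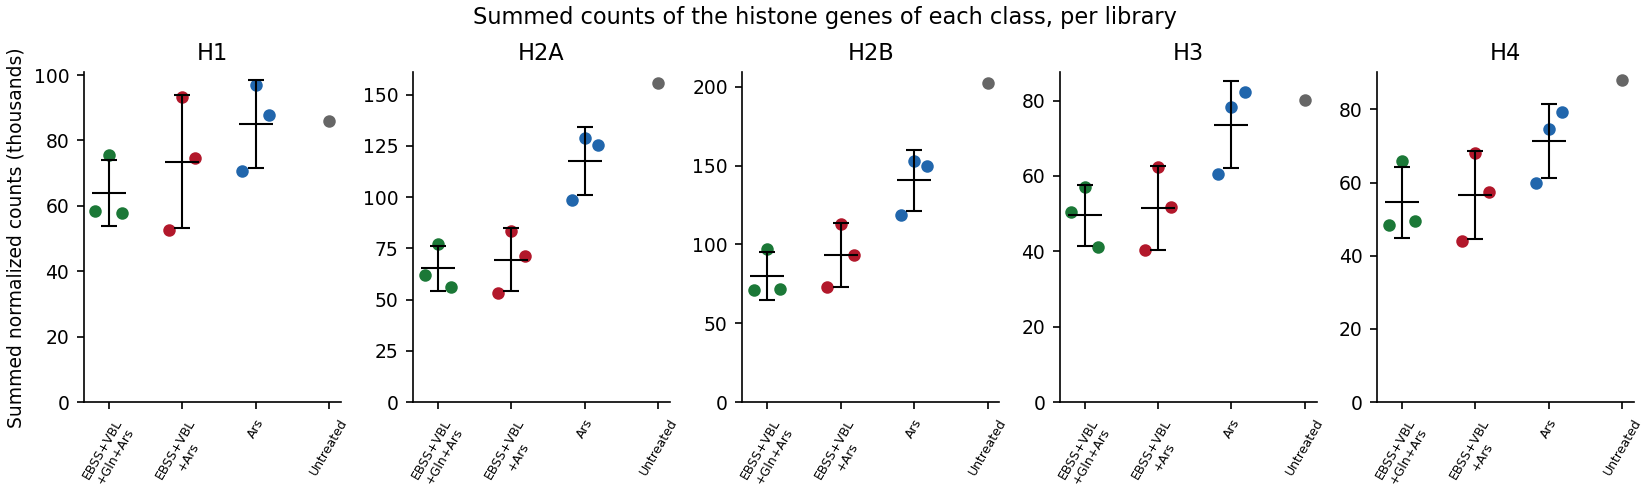
Summed normalized counts (in units of 1000) of the H1, H2A, H2B, H3 and H4 genes in each library, by group. Points are libraries and black marks are the mean ± SD of 3 libraries. In the H2A panel the Ars libraries lie at 98470.2 to 128992 counts, above every starved and glutamine-recovered library.

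Starved cells held less mRNA of many cluster histone genes than Ars cells, and more of none by the test. Of the 40 genes tested, 22 fell in starved relative to Ars cells and 0 rose, where 21.3% of all genes tested were lower and 21.5% higher (adjusted p under 0.05 by limma and a change of at least 1.5-fold). 1 gene, H4C5, was higher at an unadjusted p under 0.05, and edgeR and DESeq2 on the recovered reads also called 0 higher. The median log2 fold change of the members was -0.73, against a median over all genes tested of 0.016, and members ranged between -4.02 and 0.47. Fold changes are on the scale of log2(normalized count + 1), which understates changes of genes with few counts. By class, 1 of 3 H1, 6 of 10 H2A, 7 of 14 H2B, 2 of 4 H3 and 6 of 9 H4 genes fell, with class medians of -0.33, -0.90, -0.74, -0.66 and -0.74. H2BC3 and H3C3 are counted among the 22 but reached the limit of 10 only through the Ars libraries, so they had to come out lower, while H2BC1 (through Ars) and H2BC18 (through starved libraries) reached it in the same way and were not called. Without these 4 genes 20 of 36 were lower, with a median of -0.73. Leaving out 1 library at a time gave 18 to 29 falls. Without EBSS+VBL+Ars library 1, the calls of H2AC11, H2BC4, H4C2 and H4C11 were lost and H4C5 was called higher, and without EBSS+VBL+Ars library 2 a further 7 genes were called lower.

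**Figure D2:**
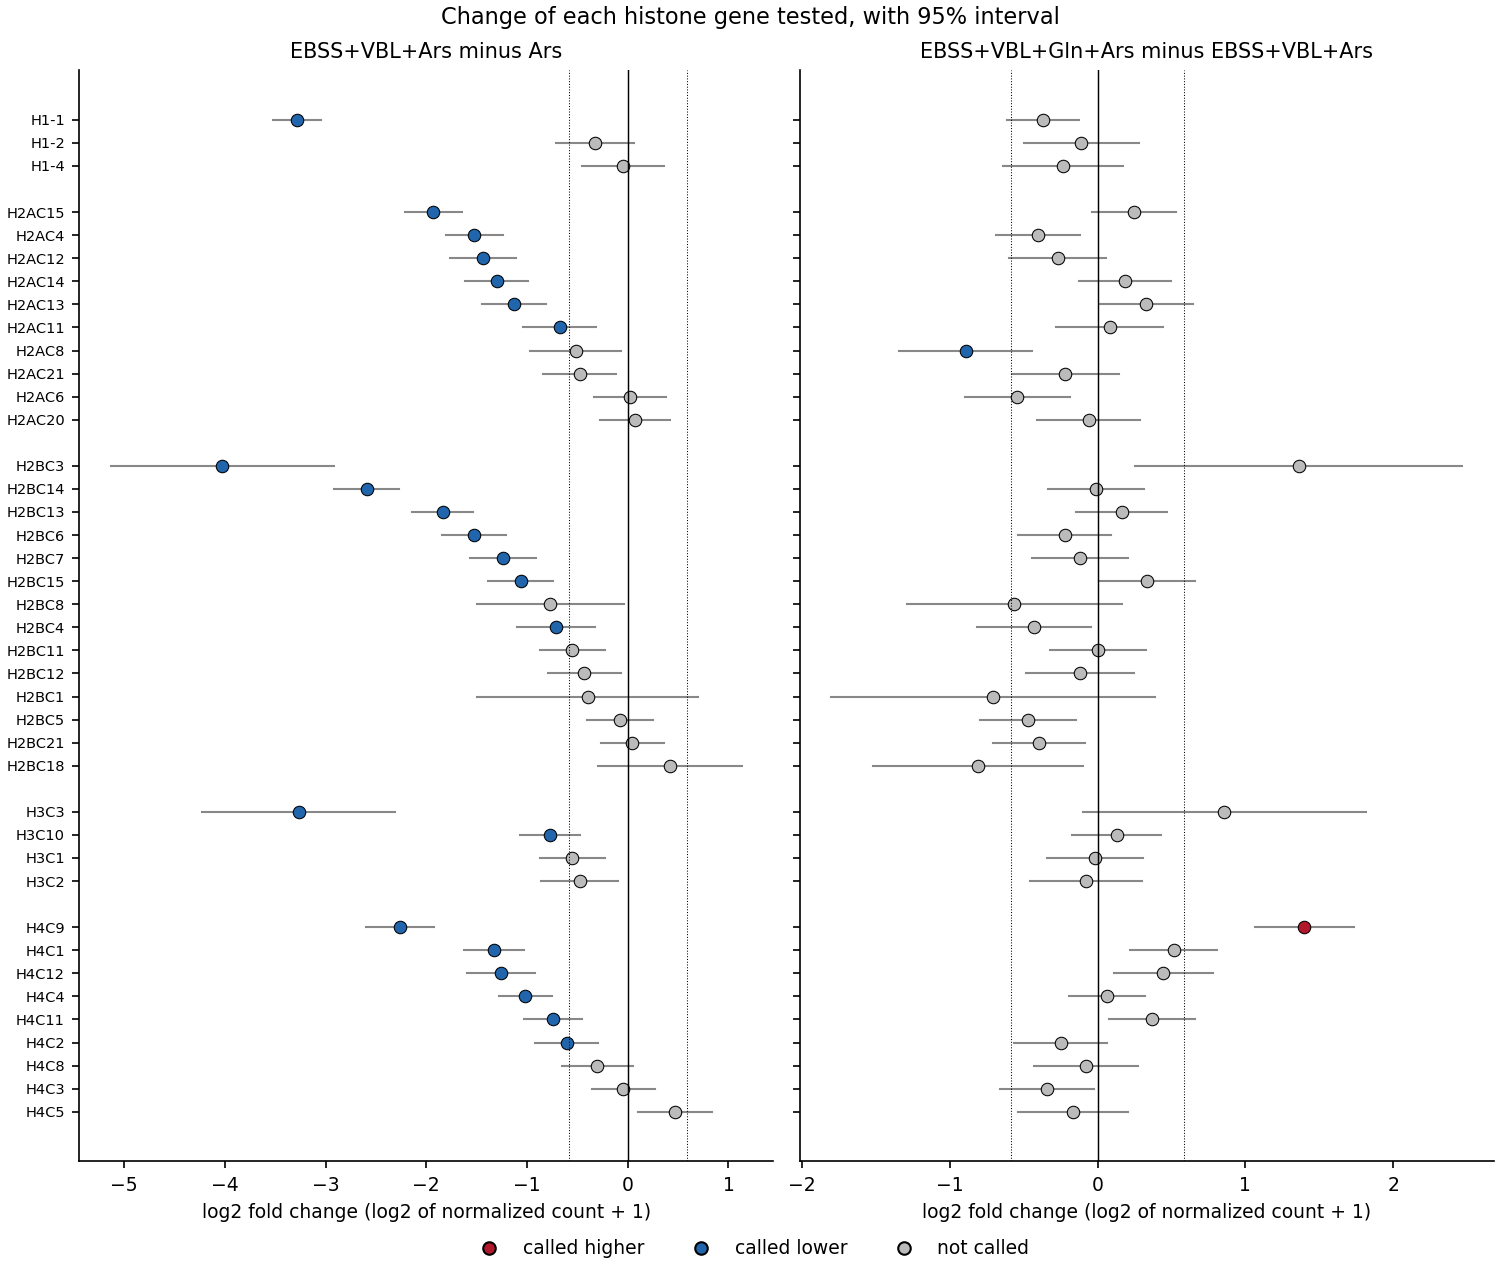
The log2 fold change of each histone gene tested, with its 95% interval from limma, for starved against Ars cells (left) and glutamine-recovered against starved cells (right), ordered by class and by size on the left. Filled colours mark genes called, and dotted lines mark 1.5-fold. On the left 22 genes are called lower, and on the right H4C9 is called higher and H2AC8 lower.

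H1 genes encode the linker histones. The 6 H1 genes were split between an abundant pair, 1 gene of moderate level and 3 genes almost without reads. H1-2 (ENSG00000187837, chr6:26055740-26056470) had 28250.2, 39715 and 29754 normalized counts in glutamine-recovered libraries, 26262, 41695 and 38289.8 in starved libraries, 36545, 51902 and 43497 in Ars libraries and 48275 in the untreated library. H1-4 (ENSG00000168298, chr6:26156329-26157115) had 29939.5, 35682 and 27779 normalized counts in glutamine-recovered libraries, 26021, 51319 and 36104 in starved libraries, 31254, 41817 and 40911 in Ars libraries and 36451 in the untreated library. Both encode main somatic linker histones, and in both the libraries of all 3 replicated groups overlapped. Neither met the thresholds between starved and Ars cells (-0.33 for H1-2, 95% interval -0.71 to 0.061, adjusted p = 0.168, and -0.050 for H1-4, interval -0.46 to 0.36, adjusted p = 0.853, limma). Together they were nearly all of H1, since H1-2 alone made up 44.6 to 56.1% of the H1 counts of a library and H1-4 42.4 to 55.0%.

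H1-1 (ENSG00000124610, chr6:26017032-26017787), a linker histone gene that many somatic cells use little, behaved differently. Its libraries had 249, 244 and 255 normalized counts in glutamine-recovered libraries, 339, 368 and 267 in starved libraries, 2751, 3263 and 3469 in Ars libraries and 1295 in the untreated library. Every Ars library was thus above every other library, and starved cells held 9.74-fold less than Ars cells (log2 fold change -3.28 ± 0.12 (SE), adjusted p = 1.67e-13 by limma). With glutamine the level was not raised (log2 fold change -0.37 ± 0.12 (SE), adjusted p = 0.0315 by limma, under the minimum fold), with all 3 glutamine-recovered libraries below the starved ones. H1-1 made up 0.322 to 3.95% of H1 counts. Its difference from H1-4 is shown beside the promoters of both, from RefSeq on GRCh38.p14, 250 bases before to 50 after the start, with motifs on either strand in capitals. The motifs were the CCAAT box, searched by those letters, and the TATA box, searched as TATAAA. The octamer element of H2A and H2B promoters was searched as ATTTGCAT. The element of H1 promoters known as the H1 box was searched as AAACACA.

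H1-1 promoter, chr6:26017738-26018037, minus strand: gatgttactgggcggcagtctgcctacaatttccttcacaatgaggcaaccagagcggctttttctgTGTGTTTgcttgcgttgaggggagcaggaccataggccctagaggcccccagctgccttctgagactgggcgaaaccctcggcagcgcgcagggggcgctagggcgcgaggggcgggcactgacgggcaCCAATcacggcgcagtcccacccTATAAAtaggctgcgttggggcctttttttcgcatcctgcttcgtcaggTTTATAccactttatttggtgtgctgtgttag
H1-4 promoter, chr6:26156079-26156378, plus strand: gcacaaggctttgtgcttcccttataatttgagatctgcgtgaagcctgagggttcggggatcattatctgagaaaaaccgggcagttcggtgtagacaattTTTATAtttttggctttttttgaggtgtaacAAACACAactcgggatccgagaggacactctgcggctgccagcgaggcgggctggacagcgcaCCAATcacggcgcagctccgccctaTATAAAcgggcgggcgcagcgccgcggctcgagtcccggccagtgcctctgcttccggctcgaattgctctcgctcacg

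Both hold a CCAAT box, a TATA box and an H1 box, so these motifs were shared by the gene that fell and the one that was not called. The H1 box was in the promoters of all 6 H1 genes, against 5.64% of 35116 RefSeq promoters, and CCAAT also in all 6, against 34.6%.

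H2A genes encode a core histone that pairs with H2B. In this class the gene with the highest level changed little more than the limit and several genes of middle level fell further. H2AC11 (chr6:27133043-27133535) had 29058, 33834 and 24527 normalized counts in glutamine-recovered libraries, 21432, 33205 and 28544 in starved libraries, 36388, 46057 and 49356 in Ars libraries and 54249.8 in the untreated library. The next in level, H2AC12 (chr6:27147106-27147562), had 7087, 8580.1 and 5987 normalized counts in glutamine-recovered libraries, 6914, 10768 and 8558 in starved libraries, 19468, 26203 and 24794 in Ars libraries and 33706 in the untreated library. H2AC11, which took 34.8 to 46.7% of H2A counts, fell by 0.68 on the log2 scale in starved against Ars cells (SE 0.19, adjusted p = 0.00440 by limma), with no overlap between the libraries of those groups. H2AC12 fell 2.71-fold (log2 fold change -1.44 ± 0.17 (SE), adjusted p = 6.96e-07 by limma), and all of its starved and glutamine-recovered libraries lay below all Ars libraries.

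H2AC15 (chr6:27837880-27838375) had 838, 947 and 651 normalized counts in glutamine-recovered libraries, 562, 831 and 661 in starved libraries, 2288, 2774 and 2692 in Ars libraries and 3083 in the untreated library. It fell 3.81-fold between starved and Ars cells, with all Ars libraries above all starved and glutamine-recovered ones (log2 fold change -1.93 ± 0.15 (SE), adjusted p = 2.00e-09 by limma). H2AC20, on chromosome 1 (chr1:149886918-149887411), stood at the other end with 4070.2, 6495 and 4530.2 normalized counts in glutamine-recovered libraries, 4493, 6043 and 4999 in starved libraries, 4345, 6539 and 4124 in Ars libraries and 8181 in the untreated library. Its groups overlapped throughout and its change was 0.071 (95% interval -0.28 to 0.42, adjusted p = 0.752, limma). H2AC13 (chr6:27808173-27808667) had 5138, 5569 and 4278 normalized counts in glutamine-recovered libraries, 2951, 4899.5 and 4260.3 in starved libraries, 7296, 9256 and 9527 in Ars libraries and 10370.5 in the untreated library. It fell 2.19-fold with starvation (log2 fold change -1.13 ± 0.16 (SE), adjusted p = 8.44e-06 by limma) and its change with glutamine did not pass the test (log2 fold change 0.33 ± 0.16 (SE), adjusted p = 0.133 by limma). Only 39.2% of the 80-base windows of H2AC13 were found in no other gene, so part of its reads could belong to a copy such as H2AC14 (36.3%), while H2AC11, H2AC12 and H2AC15 had 100%. Of the other H2A genes H2AC4 and H2AC14 fell (log2 fold changes -1.52 and -1.30) and H2AC6, H2AC8 and H2AC21 were not called, with changes between -0.52 and 0.023.

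H2B genes are the partners of H2A, and their changes differed widely. H2BC12 (chr6:27146361-27146855) had 15265, 20751 and 15592 normalized counts in glutamine-recovered libraries, 13602, 23852 and 19548 in starved libraries, 21223, 26833 and 27310.3 in Ars libraries and 36878 in the untreated library. H2BC4 (chr6:26086317-26123926) had 8667, 14995 and 10746 normalized counts in glutamine-recovered libraries, 11685, 18954 and 15475 in starved libraries, 21080.3, 30080.4 and 23969 in Ars libraries and 43015 in the untreated library. No other H2B gene had a higher mean over the 9 libraries. H2BC12 was not called (log2 fold change -0.43 ± 0.19 (SE), adjusted p = 0.0560 by limma), its starved and Ars libraries overlapping, and H2BC4 fell (log2 fold change -0.72 ± 0.20 (SE), adjusted p = 0.00458 by limma) with no overlap. The call of H2BC4 was lost without Ars library 2 or EBSS+VBL+Ars library 1, at log2 fold changes of -0.58 and -0.53. H2BC12 shares sequence with copies, 65.4% of its 80-base windows being found only there.

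H2BC3 (chr6:26043227-26043713) had 3.25, 7.62 and 6.85 normalized counts in glutamine-recovered libraries, 1.12, 6.98 and 0 in starved libraries, 33.1, 42.9 and 47.8 in Ars libraries and 7.61 in the untreated library. It passed the limit of 10 only through the Ars libraries, so its lower level elsewhere was set in part by that limit and is given as a description, at a log2 fold change of -4.02 ± 0.56 (SE) in starved against Ars cells. On so few counts the value moved with the processing, to -4.84 without EBSS+VBL+Ars library 2, -3.34 without EBSS+VBL+Ars library 3 and -2.68 with a pseudocount of 5. H2BC18, on chromosome 1 (chr1:149782689-149812373), had 5.41, 8.71 and 8.22 normalized counts in glutamine-recovered libraries, 12.4, 12.2 and 16.6 in starved libraries, 6.75, 13.0 and 10.9 in Ars libraries and 16.2 in the untreated library. Its change with starvation was 0.42 (95% interval -0.29 to 1.13, adjusted p = 0.336, limma), and its starved and Ars libraries overlapped. Only 43.6% of the 80-base windows of H2BC18 were found in no other gene, so its few counts are uncertain. Of the remaining H2B genes, H2BC6, H2BC7, H2BC13, H2BC14 and H2BC15 fell, with log2 fold changes between -2.59 and -1.06, and H2BC1, H2BC5, H2BC8, H2BC11 and H2BC21 were not called.

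H2BC14, named after its values were seen, had 858, 1017 and 772 normalized counts in glutamine-recovered libraries, 681, 1207 and 842 in starved libraries, 4423, 6051 and 5682 in Ars libraries and 7325 in the untreated library. It fell 6.03-fold with starvation (log2 fold change -2.59 ± 0.17 (SE), adjusted p = 2.08e-10 by limma), with Ars libraries far above both other treated groups. Its promoter is printed beside that of H2BC12, as a pair of H2B genes that moved differently.

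H2BC14 promoter, chr6:27814772-27815071, plus strand: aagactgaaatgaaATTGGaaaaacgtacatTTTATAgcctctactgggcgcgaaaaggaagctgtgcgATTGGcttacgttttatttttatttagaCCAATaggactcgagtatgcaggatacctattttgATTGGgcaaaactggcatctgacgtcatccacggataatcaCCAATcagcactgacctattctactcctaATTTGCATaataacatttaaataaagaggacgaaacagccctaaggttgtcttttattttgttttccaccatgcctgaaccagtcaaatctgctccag
H2BC12 promoter, chr6:27146809-27147108, minus strand: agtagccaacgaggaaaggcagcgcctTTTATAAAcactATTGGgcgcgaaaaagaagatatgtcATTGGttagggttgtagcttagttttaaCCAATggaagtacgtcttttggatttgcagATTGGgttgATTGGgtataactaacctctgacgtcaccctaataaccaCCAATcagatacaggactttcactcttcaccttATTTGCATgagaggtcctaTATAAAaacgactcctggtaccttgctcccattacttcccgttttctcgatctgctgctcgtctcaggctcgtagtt

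Both promoters hold the CCAAT box more than once, a match to TATAAA and the octamer. In H2BC14 that match is on the reverse strand only and lies far before the octamer. H2BC12 has matches before the octamer and also a forward match after it. The octamer was found in 14 of 17 H2B and 11 of 15 H2A promoters, against 1.77% of all 35116. It was in 1 of 11 H3, 0 of 6 H1 and 0 of 12 H4 promoters. Among the H2A and H2B genes tested, 8 of the 18 with an octamer fell with starvation (median log2 fold change -0.61) and 4 of the 5 matched promoters without one did (median -1.13). Of all genes tested, 21.3% were lower in starved than in Ars cells. The 8 include H2BC3, which passed the limit on low counts only through Ars libraries and had to come out lower. The 4 that fell without an octamer were H2AC13, H2AC15, H2BC13 and H2BC15, all in the last stretch of chromosome 6 described below. Every histone gene tested there fell, H2AC14 and H2BC14 with an octamer among them. These counts thus cannot tell the octamer from position. They are counts over few genes, and a motif match is a description and not a bound site.

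H3 genes encode the core histone whose tail carries many of the studied chromatin marks. A single gene supplied most of its mRNA here. H3C2 (chr6:26031589-26032099) had 35398, 40461 and 29779 normalized counts in glutamine-recovered libraries, 28914, 46169.9 and 37745 in starved libraries, 42603, 54729 and 58469 in Ars libraries and 56948 in the untreated library. H3C1 (chr6:26020451-26020958) had 8689, 9824 and 6446 normalized counts in glutamine-recovered libraries, 6919, 9741 and 8448 in starved libraries, 9985, 13239.9 and 13579 in Ars libraries and 13790.2 in the untreated library. H3C2 took 69.9 to 74.1% of the H3 counts of each library and H3C1 15.6 to 17.3%, so the shares hardly moved between the groups. Both had smaller means in starved than in Ars cells with adjusted p under 0.05 but under the minimum fold, log2 fold change -0.48 ± 0.19 (SE), adjusted p = 0.0416 by limma for H3C2 and -0.55 ± 0.17 with adjusted p = 0.00807 for H3C1. Each was called lower without Ars library 1 (-0.61 for H3C2 and -0.69 for H3C1) and without EBSS+VBL+Ars library 2 (-0.64 for H3C2 and -0.67 for H3C1).

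H3C3 (chr6:26045384-26045869) had 13.0, 13.1 and 5.48 normalized counts in glutamine-recovered libraries, 1.12, 12.2 and 6.63 in starved libraries, 53.3, 53.1 and 63.7 in Ars libraries and 6.66 in the untreated library. Like H2BC3, its neighbour on chromosome 6, it had few counts and passed the limit of 10 only through its Ars libraries, so its change is likewise a description, at -3.26 ± 0.49 (SE) in starved against Ars cells, and -2.52 without EBSS+VBL+Ars library 1 or with a pseudocount of 5. H3C10 was the remaining H3 gene tested and fell by 0.77 on the log2 scale (adjusted p = 0.000280 by limma).

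H4 genes encode the partner of H3, and most of them make the same protein. The genes did not change together. H4C5 (ENSG00000276966, chr6:26204610-26205021) had 17090.4, 23631 and 20115 normalized counts in glutamine-recovered libraries, 16527, 29249 and 23759 in starved libraries, 13778, 16457 and 19164 in Ars libraries and 20997 in the untreated library. H4C2 (chr6:26026896-26027283) had 9980.2, 12758 and 8829 normalized counts in glutamine-recovered libraries, 10546, 14328 and 12501 in starved libraries, 15589, 20149 and 21225 in Ars libraries and 22605 in the untreated library. Between starved and Ars cells H4C5 had a log2 fold change of 0.47 ± 0.19 (SE), adjusted p = 0.0417 by limma, under the minimum fold and with overlap of the groups. Without EBSS+VBL+Ars library 1 it was called higher, at 0.69. H4C2 fell (log2 fold change -0.61 ± 0.16 (SE), adjusted p = 0.00353 by limma) with no overlap, a call lost without EBSS+VBL+Ars library 1 (-0.49), Ars library 2 (-0.56) or Ars library 3 (-0.52). Within H4 counts the share of H4C5 was 35.3, 35.9 and 40.7% in glutamine-recovered, 37.5, 42.9 and 41.4% in starved and 23.0, 22.1 and 24.1% in Ars libraries, without overlap between starved and Ars libraries, and 23.9% in the untreated one.

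H4C9 (ENSG00000276180, chr6:27139282-27139678) had 2872, 3041 and 2096 normalized counts in glutamine-recovered libraries, 767, 1318 and 984 in starved libraries, 4051, 4861 and 5609 in Ars libraries and 4042 in the untreated library. Starved libraries were the lowest, glutamine-recovered libraries intermediate and Ars libraries the highest, with no overlap. The fall with starvation was 4.80-fold (log2 fold change -2.26 ± 0.17 (SE), adjusted p = 2.11e-09 by limma) and the rise with glutamine 2.64-fold (log2 fold change 1.40 ± 0.17 (SE), adjusted p = 1.68e-05 by limma). All 80-base windows of H4C9 and H4C5 were found in no other gene, so reads of that length can be told from those of copies. Their promoters are printed next to each other because the starved means lay on opposite sides of the Ars means.

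H4C5 promoter, chr6:26204360-26204659, plus strand: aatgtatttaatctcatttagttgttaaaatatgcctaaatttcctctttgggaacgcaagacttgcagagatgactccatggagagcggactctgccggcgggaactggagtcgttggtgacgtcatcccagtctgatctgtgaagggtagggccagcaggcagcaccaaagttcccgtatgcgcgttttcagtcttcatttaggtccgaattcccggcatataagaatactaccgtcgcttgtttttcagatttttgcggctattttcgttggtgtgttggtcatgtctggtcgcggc
H4C9 promoter, chr6:27139032-27139331, plus strand: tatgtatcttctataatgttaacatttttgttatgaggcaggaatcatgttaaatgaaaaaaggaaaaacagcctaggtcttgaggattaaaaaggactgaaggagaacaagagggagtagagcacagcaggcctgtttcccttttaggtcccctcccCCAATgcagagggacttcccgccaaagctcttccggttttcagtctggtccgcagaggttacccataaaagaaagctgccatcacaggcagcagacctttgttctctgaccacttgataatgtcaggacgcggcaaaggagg

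The H4C5 window holds none of the 4 motifs, and the H4C9 window holds a CCAAT alone. CCAAT was in 3 of the 12 H4 promoters matched, against 6 of 6 H1, 15 of 15 H2A, 17 of 17 H2B and 11 of 11 H3 promoters. Of the other H4 genes H4C1, H4C4, H4C11 and H4C12 fell (log2 fold changes -1.33, -1.02, -0.74 and -1.26) and H4C3 and H4C8 were not called (-0.043 and -0.30). H4C11 and H4C12 are near copies, with 8.71% and 8.12% of windows found only in each, and their values are uncertain.

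**Figure D3:**
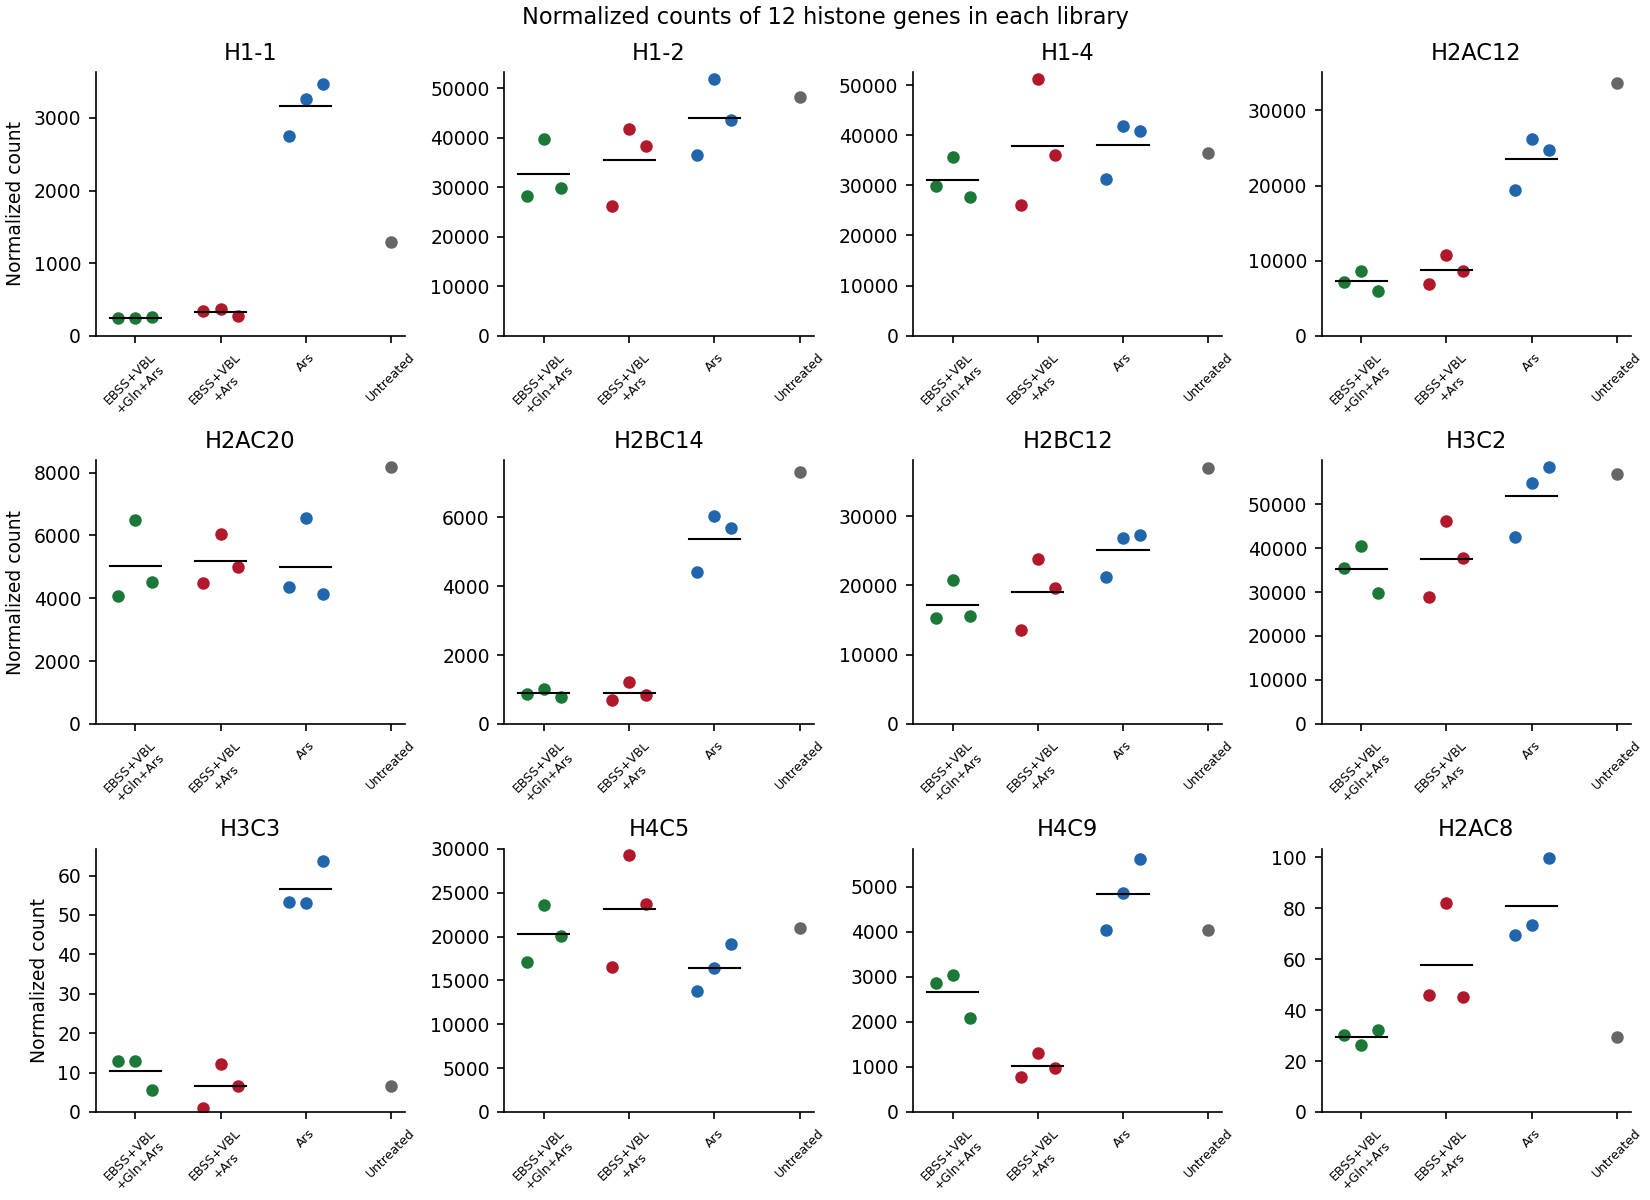
Normalized counts of 12 histone genes in each library (points) with the mean of 3 libraries (black lines), by group, each axis starting at 0. H1-1, H2AC12, H2BC14 and H3C3 have every Ars library above every starved and glutamine-recovered library, H4C9 steps up with glutamine, and the groups of H1-4 and H2AC20 overlap.

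Levels can be compared between genes only per length, here as the mean normalized count over the 9 libraries per kilobase of the shortest coding transcript. On this scale H3C2 was highest (81380.3), followed by H2AC11 (68154), H1-2 (51058), H4C5 (48481) and H1-4 (45295). In every group H1-2, H2AC11 and H3C2 had the highest level of their class, but the first H2B and H4 gene differed between groups. H2BC12 had 34753 in glutamine-recovered and 38385 in starved libraries, above H2BC4 (24934 and 33415), while in Ars and untreated libraries H2BC4 (54442 and 93511) had more than H2BC12 (50752 and 74501). H4C5 had 49220.1 and 56258 in glutamine-recovered and starved libraries, above H4C2 (27119.5 and 32109.6), and H4C2 was the higher one in Ars and untreated libraries (48937 and 58260.0, against 39966 and 50963 for H4C5). These are group means, and these orders were not tested. H2BC4 has 2881 annotated exonic bases but was divided by the 460 of its shortest coding transcript. Only 65.4% of the 80-base windows of H2BC12 were found only there, so the order of H2BC4 and H2BC12 is uncertain. Of the 40 genes tested, 31 averaged 1000 normalized counts or more. Of those 31, 17 fell with starvation (54.8%, against 21.3% of all genes tested), so the falls were not limited to genes of few counts.

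Added glutamine moved few cluster histone genes. In glutamine-recovered against starved cells 1 of the 40 genes, H4C9, rose and 1, H2AC8, fell, where 8.45% of all genes tested were higher and 8.52% lower (limma, same thresholds). The median log2 fold change of the members was -0.095, with a range of -0.89 to 1.40, and that of all genes tested 0.004. H2AC8, named because it was the single gene called lower, had 30.3, 26.1 and 32.2 normalized counts in glutamine-recovered libraries, 46.1, 82.1 and 45.3 in starved libraries, 69.5, 73.6 and 99.8 in Ars libraries and 29.5 in the untreated library. Its glutamine-recovered libraries all lay below the starved ones (log2 fold change -0.89 ± 0.23 (SE), adjusted p = 0.00725 by limma). H4C1, a neighbour of H1-1 and H3C1, was also higher in all glutamine-recovered than in all starved libraries and missed the minimum fold (log2 fold change 0.51 ± 0.15 (SE), adjusted p = 0.0158 by limma). H2BC3 and H3C3 had changes of 1.36 and 0.86 on few counts (adjusted p = 0.0775 and 0.199, limma). These counts depend on the libraries and on their scaling. Without EBSS+VBL+Ars library 2, 5 genes were higher (with H2BC3, H3C3, H4C1 and H4C12), without EBSS+VBL+Gln+Ars library 3, 2 were (with H4C1), and without EBSS+VBL+Ars library 1 or EBSS+VBL+Gln+Ars library 2, 3 and 4 were lower. When every library was scaled to the same total, 7 genes rose, but that scaling also moved the median of all genes by 0.28, against a median of 0.19 for the members, which remained below that of all genes. After quantile normalization the median of the members was 0.24, above that of all genes (0.0081), with 4 genes higher, so the sign of the members' median depended on the scaling.

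Set against Ars cells, glutamine-recovered cells still held less of most of these mRNAs. Of the 40 genes, 24 were lower and 0 higher in EBSS+VBL+Gln+Ars than in Ars cells, where 15.3% of all genes tested were lower and 16.5% higher (limma), and edgeR and DESeq2 on recovered reads also called 0 higher, with 0 also at an unadjusted p under 0.05. The median was -0.81, against 0.016 over all genes tested, and 1 of 3 H1, 8 of 10 H2A, 8 of 14 H2B, 2 of 4 H3 and 5 of 9 H4 genes were lower. Without the 4 genes that passed the limit through 1 group, 22 of 36 were lower. H1-1 and H2BC14 had log2 fold changes of -3.65 and -2.61, H2BC3 and H3C3, which had to be lower here too, -2.66 and -2.41, and H4C5 was the gene with the highest value (0.30, adjusted p = 0.208 by limma, not called). This comparison uses the same Ars libraries as the comparison of starved cells, and the counts of both are given side by side only.

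The untreated library allowed a description of where Ars cells stood without starvation, with no test because it had no replicate. Of the 40 genes, 5 were at least 1.5-fold higher and 7 at least 1.5-fold lower in the mean of the Ars libraries than in the untreated library, where 19.4% of all genes tested were higher and 18.8% lower by that measure. The median difference of the members was -0.24, against 0.006 for all genes, and with Ars library 1 in place of the mean it was -0.47. The 5 higher genes were H1-1 (1.28), H2AC8 (1.41), H2BC1 (1.02), H2BC3 (2.28) and H3C3 (2.91), with all 3 Ars libraries above the untreated one in each. Of these, H2BC1, H2BC3 and H3C3 reached the limit of 10 only through Ars libraries, so high Ars levels were a condition of their being counted. For H3C3, H2BC3 and H2BC1 the untreated library held 7, 8 and 6 reads, and exact 95% Poisson intervals, which cover counting error of that library only, put their differences at 1.97 to 3.97, 1.39 to 3.29 and 0.016 to 2.13. Among the 7 lower genes were H4C8 (-0.97), H2AC14 (-0.85), H2BC4 (-0.80) and H2AC20 (-0.74), each below the untreated library in all 3 Ars libraries. H1-1, and H2BC3 and H3C3 (which passed the limit of 10 through Ars libraries), thus had their highest levels in Ars libraries and lower ones in every untreated, starved and glutamine-recovered library. The same held for H2BC6, whose lowest Ars library had 265 normalized counts and the untreated library 200. It held narrowly for H4C1 (10406 and 10102) and H4C9 (4051 and 4042). H2AC12 and H2BC14 were instead highest in untreated cells. 

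The members lie in 4 stretches, separated by at least 400000 bases, and are described here by stretch. On chromosome 6 these run over chr6:25723397-26285638, chr6:27125897-27147562 and chr6:27807479-27893891, and on chromosome 1 over chr1:149782689-149887965 (hg38). All 9 genes tested in the last stretch of chromosome 6 fell in starved against Ars cells (median -1.26), where 21.3% of all genes tested were lower. So did 3 of 5 in the middle stretch (median -0.68) and 10 of 22 in the first (median -0.58). The 10 include H2BC3 and H3C3, which passed the limit of 10 only through Ars libraries and had to come out lower. Of the 4 tested on chromosome 1, 0 were called by limma, edgeR or DESeq2 and 1 was lower at an unadjusted p under 0.05 (limma median 0.057, range -0.48 to 0.42). With glutamine the medians were 0.25 in the last, 0.0053 in the middle and -0.23 in the first stretch of chromosome 6, and -0.31 on chromosome 1. H2AC13, H2AC14, H4C11 and H4C12, which can share reads with copies, all lie in the last stretch of chromosome 6, and the difference between stretches was not tested.

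**Figure D4:**
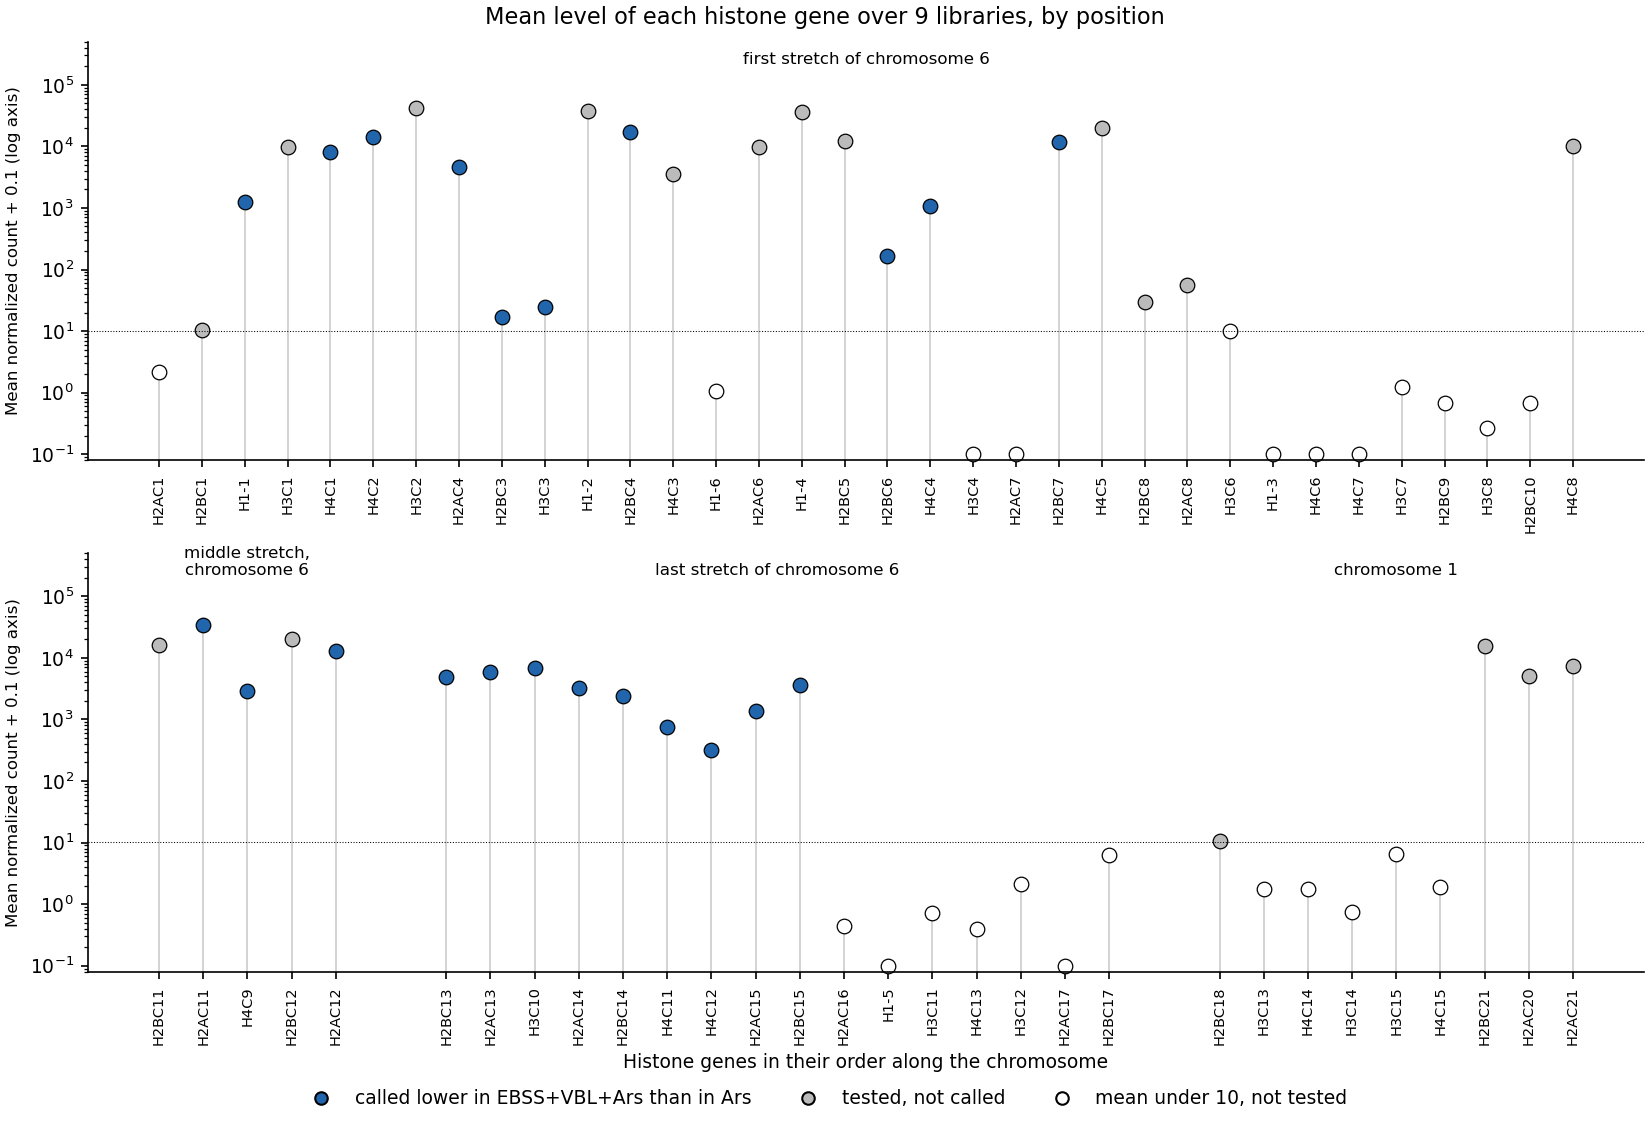
Mean normalized count of each member over the 9 replicated libraries, plus 0.1, on a log axis, with the genes in their order along each stretch. Blue marks genes called lower in starved than in Ars cells, grey genes tested and not called, and white genes under a mean of 10, which lie below the dotted line. All 9 genes tested in the last stretch of chromosome 6 are blue.

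Genes almost without reads stood next to each other. Of the 26 members under a mean of 10, 8 formed an unbroken run on the first stretch of chromosome 6, H3C6 to H2BC10 (chr6:26224199-26273412), with 124 reads over the 9 replicated libraries in all, of which H3C6 had 100. H3C6 had 4.33, 7.62 and 5.48 normalized counts in glutamine-recovered libraries, 7.86, 6.98 and 6.63 in starved libraries, 18.2, 16.8 and 15.9 in Ars libraries and 7.61 in the untreated library, and H3C6, H3C12 and H2BC9, with 100, 23 and 6 reads over those libraries, were called lower in starved against Ars cells once no limit on low values was set. A further 7 formed a run at the end of the last stretch, H2AC16 to H2BC17 (chr6:27865317-27893891), with 94 reads in all. The next gene after the first run, H4C8, had 7044, 12565 and 8439 normalized counts in glutamine-recovered libraries, 8001, 11049 and 9926 in starved libraries, 10210.4, 13715 and 11790.0 in Ars libraries and 23078 in the untreated library. H1-3 and H1-5, linker histone genes, and H4C6, H4C7 and H2AC17 had 0 reads in all 9 replicated libraries, as had H3C4 and H2AC7. A count of 0 among the 47670037 reads of these libraries allows up to 3 reads and covers counting error only. All 80-base windows of these genes were found in no gene at another place, with genes that overlap them left out of that search. H3C4 and H2AC7 share 96.6% and 85.3% of their exonic bases with another gene annotated on the same strand in GENCODE v44, and H2AC17 shares 71.0% with H3C12, and whether this bears on their counts was not tested. For H1-3, H1-5, H4C6 and H4C7 no such overlap was annotated in that release, which may not be the release the study used. On chromosome 1 the near copies H3C14, H3C15, H4C14 and H4C15 had 6, 63, 16 and 16 reads, and at most 0.903% of their windows were found only there, so their counts are uncertain.

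H2A and H2B genes often lie head to head and can share a promoter region. Among members next to each other in order of start position, 10 such pairs lay 169 to 250 bases apart, and 7 had both genes tested. H2BC4 and H2AC6 also lie head to head but were not among the 10, as other members start within the long span of H2BC4. Of these, H2BC4 fell (-0.72) and H2AC6 was not called (0.023). H2AC14 and H2BC14 fell by 1.30 and 2.59 on the log2 scale in starved against Ars cells, and H2AC12 fell by 1.44 while H2BC12 was not called (-0.43). H2BC13 and H2AC13 both fell (-1.84 and -1.13), as did H2AC15 and H2BC15 (-1.93 and -1.06). H2BC21 and H2AC20 on chromosome 1 had like values (0.043 and 0.071) and neither was called. Genes of the 7 pairs thus differed by between 0.028 and 1.29 on the log2 scale.

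Changes were also laid beside features of the transcripts, as a description with no test. H2B genes with a TTTA loop (5 tested) had a median log2 fold change of -0.55 in starved against Ars cells, 2 of them falling, and those with a TTTC loop (9 tested) -1.06, 5 of them falling. Core histone genes for which GENCODE lists a transcript over 600 bases, longer than the classic mRNA that ends at the stem-loop (10 tested), had a median of -0.43 with 4 falls, and those without one (27 tested) -1.02 with 17 falls. The files count reads per gene and do not say which end a read came from, so mRNAs that end at the stem-loop and longer, polyadenylated forms could not be told apart. The 27 members whose windows were all found only there had a median of -0.68, with 14 falls, and the 5 with fewer than 50% such windows -1.13, with 4. Of all genes tested, 21.3% were lower in starved than in Ars cells. H2BC3 and H3C3, which reached the limit of 10 only through Ars libraries and had to come out lower, are among the 17 and the 14 falls. H2BC3 is also among the 5 falls of the TTTC loop.

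Genes that act with the cluster histones were followed from lists written for this purpose, on the same tests and thresholds. Where a list had 0 genes called in a direction by limma, edgeR and DESeq2 also called 0, and 0 to 3 of its genes had an unadjusted p under 0.05 in that direction. Of 30 S phase replication genes, 25 were lower and 0 higher in starved than in Ars cells (median log2 fold change -1.30), a share of 83.3% lower against 21.3% of all genes tested, and 10 were higher and 0 lower with glutamine (1 lower at an unadjusted p under 0.05, median 0.45), 33.3% against 8.45% of all genes. TYMS, which makes thymidylate for DNA synthesis, had 769, 699 and 776 normalized counts in glutamine-recovered libraries, 477, 388 and 399 in starved libraries, 1495, 1328 and 1333 in Ars libraries and 899 in the untreated library. Its level fell with starvation (-1.72 ± 0.11 (SE), adjusted p = 1.69e-10, limma) and rose with glutamine (0.83 ± 0.11 (SE), adjusted p = 3.07e-05), the glutamine-recovered libraries lying between the other groups without overlap. MCM6 and GINS2, parts of the replicative helicase, fell by 2.06 and 2.47 on the log2 scale with starvation and rose by 1.18 and 1.38 with glutamine. Mitosis genes gave 4 of 10 lower with starvation (3 by edgeR and by DESeq2, and 21.3% of all genes tested) and 2 of 10 higher with glutamine (8.45% of all genes), counts too small to read against those shares, among them KIF20A, a kinesin of cell division, at -1.90 with starvation, and CENPF, a kinetochore protein, at 0.79 with glutamine.

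Of 19 factors for transcription and 3′ end formation of histone mRNA, 8 were lower and 4 higher in starved than in Ars cells, and 4 were higher and 0 lower with glutamine. The share lower was 42.1%, against 21.3% of all genes tested, the share higher 21.1%, which is close to the 21.5% of all genes and no result about the list, and with glutamine 21.1% were higher, against 8.45%. SLBP, which binds the stem-loop, had 105, 100.1 and 96.6 normalized counts in glutamine-recovered libraries, 59.5, 66.4 and 42.0 in starved libraries, 120.2, 91.3 and 98.1 in Ars libraries and 107 in the untreated library. All starved libraries lay below all others (starvation -0.89 ± 0.18 (SE), adjusted p = 0.000350, and glutamine 0.86 ± 0.18 (SE), adjusted p = 0.00172, limma). CCNE1, the cyclin E that acts with CDK2 on NPAT, fell (-1.54 ± 0.13 (SE), adjusted p = 8.80e-09) and rose again with glutamine (0.81 ± 0.13 (SE), adjusted p = 0.000195), as did CASP8AP2, a part of histone locus bodies (-0.76 and 0.95), and CPSF3, the nuclease that cuts the 3′ end (-0.59 and 0.77). HINFP, the factor that binds H4 promoters, was among the 4 higher with starvation (0.85 ± 0.15 (SE), adjusted p = 0.000111). NPAT itself, outside the naming rule and given for its role, was not called (-0.33 ± 0.22 (SE), adjusted p = 0.222 with starvation and 0.18 with glutamine, limma).

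Of 11 factors for decay of histone mRNA, 4 were lower and 2 higher with starvation and 0 were called with glutamine by limma, edgeR or DESeq2, while at an unadjusted p under 0.05 by limma 2 were higher and 1 lower. The share lower was 36.4%, against 21.3% of all genes tested, and the share higher 18.2%, against 21.5%, so the genes higher are no result about the list. LSM2 and LSM4, subunits of the LSM ring that binds oligouridylated histone mRNA, were lower (-1.11 and -0.64), and UPF1, the helicase recruited by SLBP during decay, had 0.53 ± 0.10 (SE), adjusted p = 0.000182 by limma, short of the minimum fold. The 2 called higher by limma and DESeq2 (1 by edgeR), named after their values were seen, were XRN1, an exonuclease that degrades RNA from the 5′ end (1.03), and TUT7, which adds uridines to RNA ends (0.64). Among 21 histone chaperones and assembly factors 6 were lower and 1 higher with starvation and 1 was higher with glutamine. Of all genes tested 21.3% were lower and 21.5% higher with starvation, so the 28.6% lower here was near that share and the 4.76% higher under it, as was the 4.76% higher with glutamine against 8.45%. ASF1A and ASF1B, which hand H3 with H4 to assembly factors, were lower (log2 fold changes -1.76 and -1.21), as was CHAF1B of the replication-coupled assembly complex (-1.72), while UBN1, of the replication-independent HIRA complex, rose by 0.86.

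Histone genes outside the clusters, whose mRNAs are polyadenylated or made throughout the cycle, gave 4 lower and 0 higher of 11 tested with starvation, and 3 higher and 1 lower with glutamine. The share lower with starvation was 36.4%, against 21.3% of all genes tested, and with glutamine 27.3% were higher, against 8.45%, and 9.09% lower, close to the 8.52% of all genes. H2AZ2, which encodes a form of the variant H2A.Z, had 490.2, 431 and 431 normalized counts in glutamine-recovered libraries, 328, 217 and 239.8 in starved libraries, 662, 592 and 563 in Ars libraries and 340.5 in the untreated library. All starved libraries lay below all glutamine-recovered and those below all Ars libraries. It fell with starvation (-1.23 ± 0.14 (SE), adjusted p = 3.62e-07) and rose with glutamine (0.80 ± 0.14 (SE), adjusted p = 0.000333, limma), as did H2AZ1 (-0.94 and 0.80) and MACROH2A2, a variant of silent chromatin (-1.80 and 1.18). The linker variant H1-10 was lower with glutamine (-0.92 ± 0.12 (SE), adjusted p = 2.37e-05, limma). The difference between the lists and the cluster histone genes was not tested, and changes in how many cells were in S phase cannot be told apart from changes per cell.

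**Figure D5:**
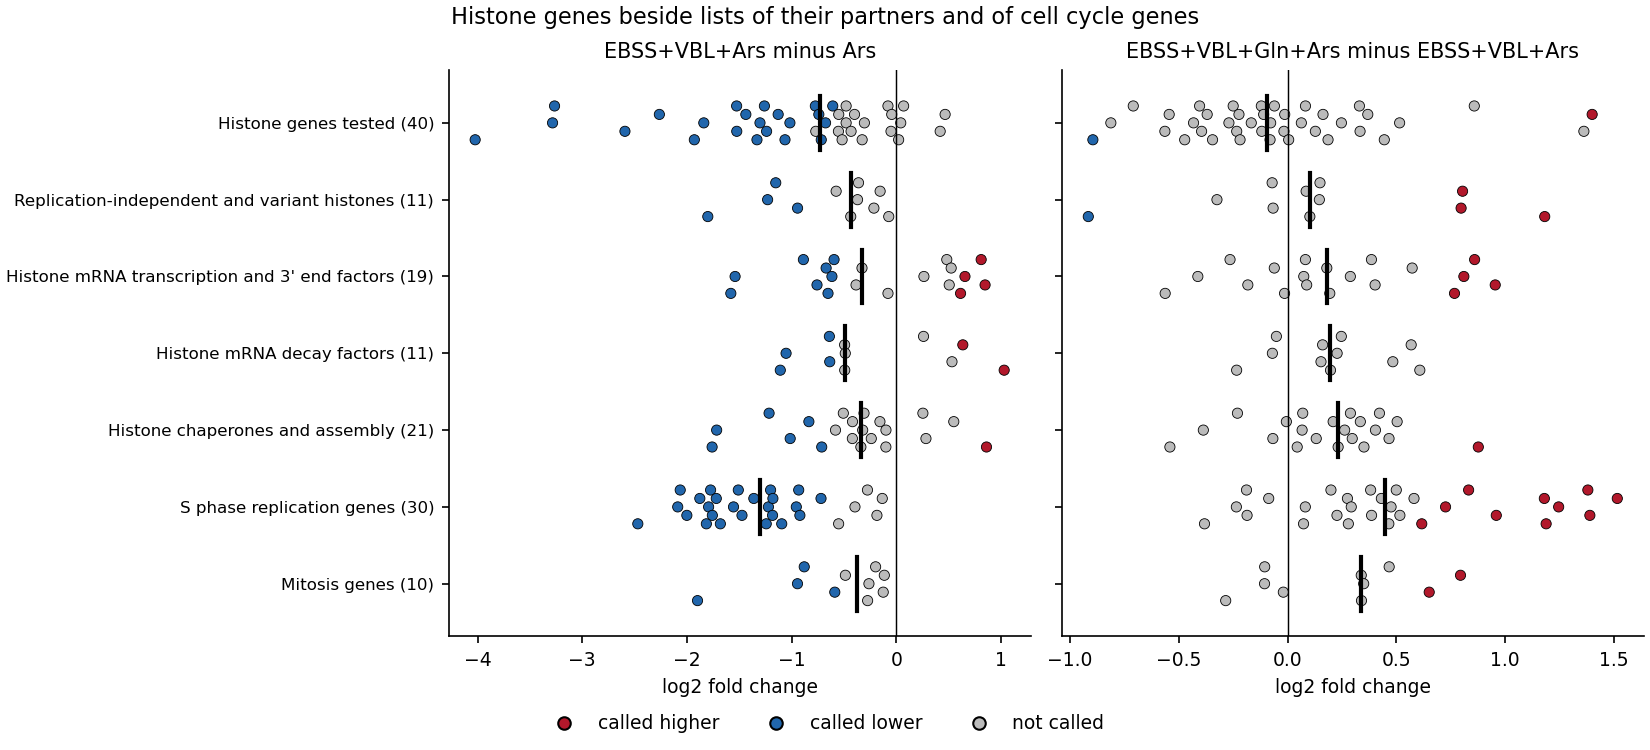
The log2 fold change of each gene tested (points, coloured where called) in the cluster histone genes and in 6 lists of related genes, for starved against Ars cells (left) and glutamine-recovered against starved cells (right), with black lines at the median of each list. On the right 10 of 30 S phase replication genes and 1 of 40 cluster histone genes are called higher.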

How the data were processed

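RNA of U2OS cells was sequenced after rRNA depletion in 10 libraries. Per the labels and the study's methods, reads were mapped to hg38 with STAR, counted per gene with HTSeq and normalized with DESeq2. Their versions, the annotation release and the strand setting are not given in the sources used here. Deposited by the authors were normalized counts (gene counts divided by a size factor, a signal that is not whole). In every library 100% of values were whole multiples of 1 step within 0.01 reads, so reads were recovered for depth, for shares and for the count tests. No column of the authors' own comparisons was used.

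The 12971 genes that averaged 10 or more normalized counts across the 9 libraries with replicates were fitted together on log2(normalized count + 1) with limma 3.58.1 in R 4.3.3, with a trend and with 1 term per group, and p-values were adjusted over all of them by the Benjamini-Hochberg method. Calls required both a 1.5-fold difference and an adjusted p below 0.05, as in the study. The untreated library entered no test. Alternatives used edgeR 4.0.16 and DESeq2 1.42.0 on recovered reads, pseudocounts of 0.5 and 5, a minimum mean of 50 or none, equal totals with and without RN7SL1, quantile normalization, removal of a GC trend, fits of the compared groups alone, the replicate number as a block, omission of each library or of replicate 3 throughout, and, chosen after seeing the data, the RN7SL1 share as a covariate. The fit was first tested on simulated data.

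Positions, transcripts and overlaps come from GENCODE v44 (hg38), which held 60401 of the 60671 gene IDs and 64 of the 66 members, and promoters from RefSeq on GRCh38.p14, matched for 61 members. Sequence sharing was measured as the percent of the 80-base windows of a gene found in no other gene. Genes overlapping the same place were not counted as other genes. The members and lists were chosen with earlier results of these data known. Values per library were given for H1 genes with a mean of at least 10, and in each core class for the 2 genes of highest mean and those with the lowest and highest change with starvation and the highest with glutamine. Up to 4 genes of a list with the smallest p in each comparison could be named. H2AC8, H2BC6, H2BC14, H4C1, H4C8, NPAT, XRN1 and TUT7, and other members named with a fold change alone, were chosen after their values were seen. Python 3.11.15 and matplotlib 3.10.9 were used for summaries and plots.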

Additional observations from a re-analysis of the deposited data

How the results depend on the processing

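Between starved and Ars cells the count of genes lower moved by less than 1.5 times under every alternative. The 22 lower became 18 to 29 when 1 library at a time was left out, and the 0 higher became 0 to 1 then and 1 with no minimum fold. Of glutamine-recovered against Ars cells, 21 to 33 were lower and 0 higher with 1 library left out. The comparison of glutamine-recovered with starved cells depended more on the processing. The 1 gene higher became 7 with equal totals, 5 with equal totals without RN7SL1, 4 with quantile normalization, 4 with the GC trend removed, 2 with no minimum fold, 2 with the RN7SL1 share as a covariate and 1 to 5 with 1 library left out. The 1 gene lower became 5 with no minimum fold, 2 with the GC trend removed and 1 to 4 with 1 library left out. The median of -0.095 became 0.19 with equal totals, 0.24 with quantile normalization and -0.28 to 0.041 with 1 library left out. The median of Ars against untreated cells became -0.47 with Ars library 1 alone. The causes of these moves were not tested.

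Equal totals moved the median of all genes by -0.16 between starved and Ars cells, 0.28 between glutamine-recovered and starved cells and 0.12 between glutamine-recovered and Ars cells. The genes higher and lower were then 2076 and 3617 (2791 and 2757 as deposited), 2836 and 330 (1096 and 1105), and 2630 and 1593 (2139 and 1985). Same-numbered libraries of different groups correlated at -0.063 to 0.31 in their deviations, with 4 of 9 over 0.1. For different numbers the range was -0.31 to 0.21, with 4 of 18 over 0.1. Library 3 had the smallest RN7SL1 share of its group in glutamine-recovered (7.88%), starved (11.7%) and Ars cells (14.1%). The labels do not say that a number marks a shared batch, so the numbers were not taken to pair the libraries, and a shared batch remains possible. With the replicate number as a block, 2 histone genes were higher with glutamine (H2BC3 was added). All other values of counts, medians and class sums stayed within 1.5 times or within 1 SD, and 1239 values of single named genes stayed on the same side of the thresholds (called or, often, not called), 39 gained a call and 19 lost one, with none changing direction while called. With no limit on low values, H3C12, H3C6 and H2BC9 were also called lower between starved and Ars cells, 25 in all, and H3C12 and H3C6 between glutamine-recovered and Ars cells (where H2AC11 lost its call), on at most 100 reads over 9 libraries.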
